A study of Mus musculus with 6 samples.

Results

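Voltage-gated calcium channels open when a neuron depolarizes and let calcium in, and the pore of each channel is made by a single large protein of the Cacna1 family. Described here are 8 Cacna1 genes used in the nervous system, taken by symbol from the 55335 genes of the deposited table. They are Cacna1a, Cacna1b and Cacna1e (the Cav2 subfamily), Cacna1c and Cacna1d (Cav1), and Cacna1g, Cacna1h and Cacna1i (Cav3). Each symbol matched a single row, and all 8 passed the filter on low levels (1 FPKM or more on average in either group), as did 12792 genes in all. The libraries came from primary GABAergic interneurons of C57BL/6 wild-type mouse embryos at embryonic day 14.5, and the study asks what Brpf1, a scaffold of histone acetyltransferase complexes, does in interneurons of the medial ganglionic eminence (MGE). All cultures received an adeno-associated virus for 12 hours, which carried a scrambled hairpin in 3 libraries (AAV-scramble) and a hairpin against Brpf1 in the other 3 (AAV-shbrpf1). The libraries of each group carry the numbers 1 to 3. The titles name the cells GABAergic interneurons, while the source field names neural progenitor cells. The labels do not say whether the libraries of a group came from separate cultures, and a p-value here covers only the variation among these libraries, which may be technical. The values are FPKM, that is, sequenced fragments scaled to the length of the transcript and the size of the library.

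In neurons the subfamilies do different work. Cav2 channels sit at presynaptic terminals, where the calcium they admit triggers transmitter release: Cacna1a makes the P/Q-type current, Cacna1b the N-type and Cacna1e the R-type. Cav1 channels make the L-type current of the soma and dendrites, which also signals to the nucleus, and Cav3 channels make the T-type current, which opens at small depolarizations and supports burst firing. Interneurons of the parvalbumin class are known for release driven by P/Q-type channels, and L-type channels have been linked to interneuron migration and maturation.

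The division between T-type and the other channels is visible in the coding sequence. A pore-forming subunit has 4 repeats, each with an acidic residue at the selectivity filter, the ring that holds calcium in the pore. In the longest complete coding transcript of each gene (GENCODE M21, build GRCm38) a pattern search found this residue once in each of the 4 repeats. All 4 codons encode glutamate in Cacna1a, Cacna1b, Cacna1c, Cacna1d and Cacna1e. In Cacna1g, Cacna1h and Cacna1i, 2 encode glutamate and 2 encode aspartate, in repeats III and IV. The beta subunit binding motif of the linker between repeats I and II was found once in each of the first 5 genes, and no match was found in the Cav3 genes. Windows of 27 nt around the repeat III codon are shown for all 8 genes because the codon sets the Cav3 genes apart from the Cav1 and Cav2 genes, which share glutamate there, with the codon in capitals and the GRCm38 position of the codon, which is exonic and coding.
Cacna1a, chr8:84581338-84581340, plus strand: gtgtccacaggaGAGggctggccacag
Cacna1b, chr2:24651092-24651094, minus strand: gtgtccacgggaGAGgggtggcccatg
Cacna1e, chr1:154444883-154444885, minus strand: gtctctacagggGAAggatggcctcag
Cacna1c, chr6:118656124-118656126, minus strand: gtctccaccttcGAAgggtggccagag
Cacna1d, chr14:30100708-30100710, minus strand: gtctcaacttttGAGggctggcccgcg
Cacna1g, chr11:94426471-94426473, minus strand: ctggcctccaagGATggctgggttgac
Cacna1h, chr17:25383508-25383510, minus strand: ctgtcatccaagGATggctgggtaaac
Cacna1i, chr15:80376807-80376809, plus strand: ttggcctccaagGATggctgggtgaac

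The codons GAG and GAA encode glutamate and GAT encodes aspartate. The longest exact stretch shared by the coding sequences of a pair of these genes was 68 nt, between Cacna1g and Cacna1i, followed by 50 nt between Cacna1h and Cacna1i and 43 nt between Cacna1c and Cacna1d. A read lying wholly within such a stretch cannot be assigned to 1 gene.

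The libraries held 13.1 to 21.1 M fragments, estimated from the steps between low values. At that depth each gene had an estimated 179 to 2767 fragments per library, for a counting error of 7.48% down to 1.9% of a value. These estimates use the length of each gene's longest complete coding transcript. The markers of GABAergic MGE interneurons were all measured (11 of 11), with Gad1, which makes GABA, at 126 ± 44.6 FPKM with AAV-scramble and 117 ± 34.3 with AAV-shbrpf1 (SD, n = 3), and so were the 7 neuron markers. Glutamatergic markers summed to at most 1.03 FPKM. The cultures also held RNA of the markers listed for progenitors or radial glia (286 to 939 FPKM summed over 8 markers). The same held for the oligodendrocyte lineage (121 to 289 over 7) and astrocytes (124 to 229 over 7). Olig1 and Olig2 led the former list, Aldoc and Aldh1l1 the latter, and which cells made this RNA was not tested. A level below is an average over a culture that may be mixed. Fewer cells of a type and less RNA per cell cannot be told apart in it. Brpf1 itself stood at 3.29, 5.45 and 4.84 FPKM in AAV-scramble libraries 1, 2 and 3. In AAV-shbrpf1 libraries 1, 2 and 3 it stood at 3.13, 4.58 and 3.78 FPKM. In the fit without pairing by number, the log2 difference was -0.18 ± 0.26 (SE, limma adjusted p = 1). That SE includes the variation between numbers. Each AAV-shbrpf1 library lay below its partner, as in 11.3% of all genes tested, and the group ranges overlapped. The libraries numbered 2 stood apart. Features of ribosomal RNA loci made 29.4% and 36.7% of their summed FPKM, against 7.66% to 11.7% in the other 4 libraries. Mitochondrial genes made 21.1% and 21.2% of summed FPKM in number 1, 6.57% and 4.75% in number 2, and 13.8% and 13.4% in number 3. The medians of log2(FPKM + 1) over tested genes were 2.54 and 2.49 in the libraries numbered 2, against 2.76 to 2.84 in the others.

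The presynaptic genes Cacna1b and Cacna1a led the family. Cacna1b, the N-type pore subunit, was the most abundant of the 8 in each of the 6 libraries. It measured 18.1, 18.3 and 17.7 FPKM in AAV-scramble libraries 1, 2 and 3, as against 17.6, 18.2 and 22.8 in AAV-shbrpf1 libraries 1, 2 and 3. It was also the steadiest gene of the family, with a highest level 1.29 times its lowest, and only AAV-shbrpf1 library 3 stood above the rest. Cacna1b is on the minus strand of chromosome 2, positions 24603887 to 24763152.

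Cacna1a, the P/Q-type pore subunit, ranked second in each library. Its levels were 8.38, 16.2 and 10.4 FPKM in AAV-scramble libraries, as against 9.35, 16.8 and 9.94 in AAV-shbrpf1 libraries. Both libraries numbered 2 were high. The ratio of Cacna1b to Cacna1a was lowest, at 1.08, in AAV-shbrpf1 library 2 and highest, at 2.29, in AAV-shbrpf1 library 3. Cacna1a is on the plus strand of chromosome 8, positions 84338639 to 84640246, where the antisense gene Gm16183 overlaps it. It is the 1 gene of the 8 whose coordinates in the table differ from GENCODE M21.

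Cacna1e, the R-type pore subunit, stood far below them. It measured 5.43, 4.0 and 5.70 FPKM in AAV-scramble libraries, as against 5.04, 3.31 and 7.11 in AAV-shbrpf1 libraries. Here the libraries numbered 2 were lowest and those numbered 3 highest, in both groups. Its rank in the family lay between 3 and 6. The gene spans 494 kb of chromosome 1, from 154390731 to 154884501 on the minus strand. The longest transcript of Cacna1e, of 14921 nt, is more than its coding part of 6819 nt, so its FPKM depends on which transcripts were counted. That is not particular to Cacna1e. The longest transcript and the longest complete coding one measure 13162 and 6669 nt for Cacna1c. They measure 9736 and 7182 nt for Cacna1b, and 9658 and 6564 nt for Cacna1d.

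**Figure D1:**
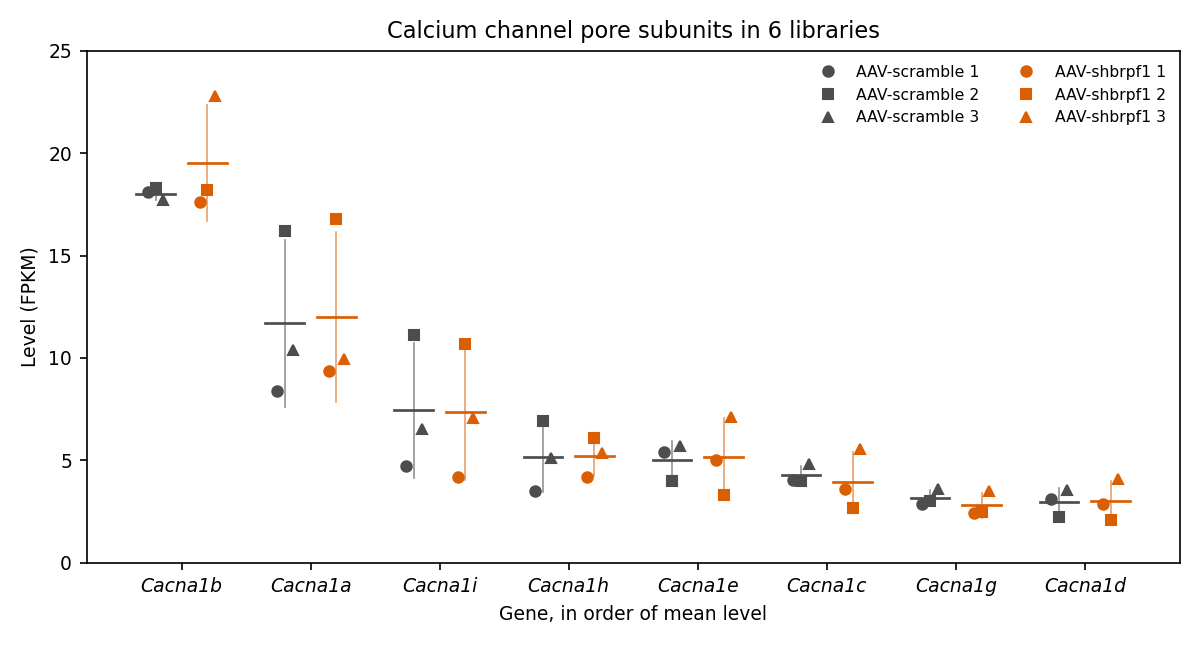
Levels of the 8 pore subunit genes in FPKM (y axis) by gene in order of mean level (x axis), with 1 point per library, grey for AAV-scramble and orange for AAV-shbrpf1, circles, squares and triangles for replicate numbers 1, 2 and 3, horizontal bars for group means and vertical lines for SD (n = 3). Cacna1b lies between 17.6 and 22.8 FPKM, and the squares of Cacna1a and Cacna1i are above the other symbols in both groups.

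Among the T-type genes Cacna1i was the most abundant and Cacna1g the least. Cacna1i measured 4.71, 11.1 and 6.54 FPKM in AAV-scramble libraries, as against 4.2, 10.7 and 7.07 in AAV-shbrpf1 libraries. It had the widest span of the family, its highest level being 2.64 times its lowest, with both libraries numbered 2 on top and both numbered 1 at the bottom. It is on the plus strand of chromosome 15, positions 80287238 to 80398279.

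Cacna1h measured 3.51, 6.92 and 5.12 FPKM in AAV-scramble libraries, as against 4.17, 6.11 and 5.36 in AAV-shbrpf1 libraries. Its libraries fell in the order of Cacna1i, with number 1 lowest and number 2 highest. It is on the minus strand of chromosome 17, positions 25374285 to 25433783 and overlaps Tpsg1 on the plus strand. Cacna1g, at 2.86, 3.04 and 3.62 FPKM in AAV-scramble libraries, as against 2.44, 2.48 and 3.52 in AAV-shbrpf1 libraries, did not follow that order, since its libraries numbered 3 were highest. It is on the minus strand of chromosome 11, positions 94408391 to 94474198.

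The L-type genes were both low. Cacna1c, the L-type subunit that is also the channel of heart and smooth muscle, measured 4.04, 4.01 and 4.82 FPKM in AAV-scramble libraries, as against 3.59, 2.69 and 5.57 in AAV-shbrpf1 libraries. The libraries numbered 3 were highest in both groups, and AAV-shbrpf1 library 2 was lowest. Smooth muscle and other mural markers summed to 27.7 and 25.3 FPKM in the libraries numbered 1 and to 1.64 to 2.69 FPKM in the other 4. Most of the sum in number 1 was Tagln (13.5 and 12.5 FPKM) and Acta2 (11.5 and 11.6 FPKM). In no library did Myh11 exceed 0.0442, Cnn1 0.28 or Rgs5 0.6 FPKM, and Pdgfrb (1.78 and 0.837 FPKM in number 1) did not follow the number. The part of these markers in the level of Cacna1c was not tested.

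Cacna1d, the L-type subunit that opens at lower voltages, measured 3.13, 2.25 and 3.56 FPKM in AAV-scramble libraries, as against 2.85, 2.08 and 4.08 in AAV-shbrpf1 libraries. It shared its library order with Cacna1e, the libraries numbered 2 being lowest and those numbered 3 highest. Cacna1c lies on chromosome 6 from 118587240 to 119196418 and Cacna1d on chromosome 14 from 30039939 to 30491455, both on the minus strand. They overlap Dcp1b, and Dcp1a and Chdh, on the plus strand, and whether counting used strand is not known here. The pore subunits known mainly from skeletal muscle and retina were nearly silent: Cacna1s was at or below 0.514 FPKM and Cacna1f at or below 0.0743 FPKM in each library.

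By mean level over the 6 libraries the order was Cacna1b (18.8 FPKM), Cacna1a (11.9), Cacna1i (7.40), Cacna1h (5.20), Cacna1e (5.10), Cacna1c (4.12), and Cacna1g and Cacna1d (2.99 each). Of the 7 pairs of neighbours, only Cacna1b and Cacna1a had ranges that did not overlap. Within libraries, Cacna1a exceeded Cacna1i, Cacna1i exceeded Cacna1h and Cacna1c exceeded Cacna1g in 6 of 6. In AAV-shbrpf1 library 1, however, Cacna1i and Cacna1h were nearly equal (4.2 and 4.17 FPKM), with counting errors of 3.55% and 3.89%. Cacna1e exceeded Cacna1c in 5 of 6, Cacna1h exceeded Cacna1e in 2 of 6 and Cacna1g exceeded Cacna1d in 3 of 6. The order of the last 2 of these pairs is therefore not fixed by these data.

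Together the 8 genes summed to 50.1, 65.8 and 57.5 FPKM in AAV-scramble libraries, as against 49.2, 62.4 and 65.4 in AAV-shbrpf1 libraries. The Cav2 genes made 58.5% to 65.0% of the sum, the Cav3 genes 22.0% to 32.0% and the Cav1 genes 7.64% to 14.7%. The subfamily order was the same in each of the 6 libraries. The Cav3 share was 32.0% and 31.0% in the libraries numbered 2 and at most 26.6% in the other 4, while the Cav1 share was 9.52% and 7.64% in the former and at least 13.1% in the latter. Between the viruses the Cav3 share was 26.9% ± 4.96 with AAV-scramble and 25.8% ± 4.66 with AAV-shbrpf1 (SD, n = 3), and the group ranges overlapped.

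**Figure D2:**
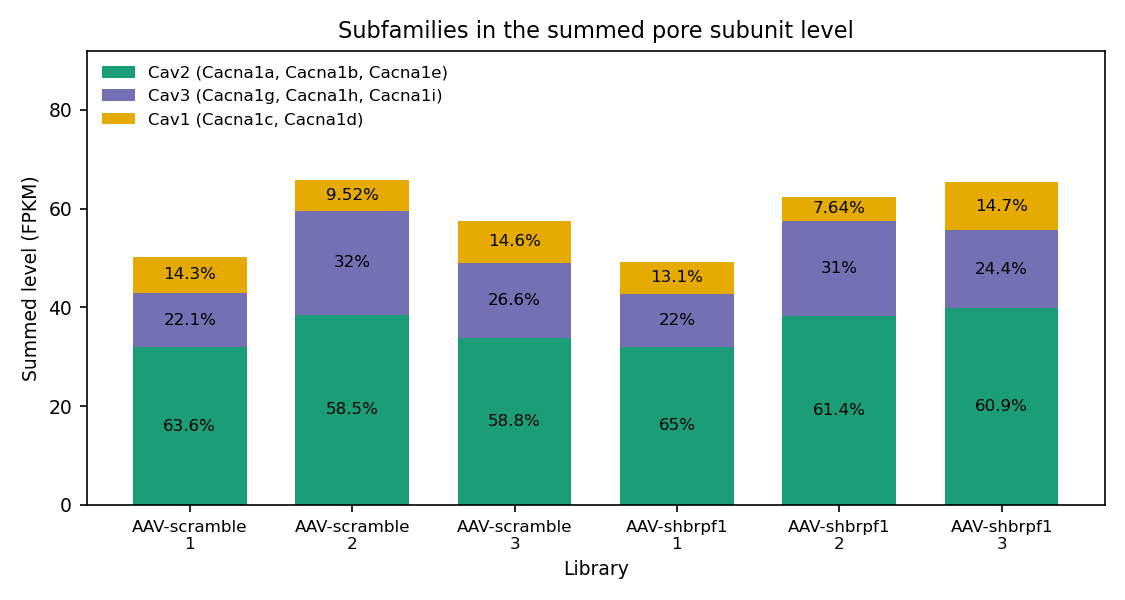
Summed level of the 8 genes in FPKM (y axis, from 0) in each library (x axis), stacked by subfamily, with each subfamily's percent of the sum printed in its segment. Cav2 is the largest segment in all 6 libraries, at 58.5% to 65.0%, and the Cav3 percent is highest in the 2 libraries numbered 2.

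The design compares AAV-shbrpf1 with AAV-scramble. None of the 8 passed the threshold (limma on log2(FPKM + 1), Benjamini-Hochberg adjusted p under 0.05 over all 12792 genes tested), where 0.0% of all genes passed. At an unadjusted p under 0.05 there were 0 members, against 0.18% of all genes (23). The group ranges overlapped for each of the 8 genes, against 1.07% of tested genes (137) whose ranges did not overlap. The ratio of the group means, AAV-shbrpf1 to AAV-scramble, ran from 0.885 for Cacna1g to 1.08 for Cacna1b. The median log2 difference was -0.01 over the members and -0.023 over all genes tested.

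Cacna1b had the largest positive difference of the 8. Its mean was 19.5 ± 2.83 FPKM (SD, n = 3) under AAV-shbrpf1, beside 18.0 ± 0.289 under AAV-scramble, a log2 difference of 0.10 ± 0.21 (SE) with a 95% interval of -0.40 to 0.60 and a limma adjusted p of 1. The excess came from pair 3 alone, where it was 28.7% higher, while pairs 1 and 2 differed by -2.67% and -0.253%. Without AAV-shbrpf1 library 3 the log2 difference was -0.01.

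Cacna1g had the largest negative difference. Its mean was 2.81 ± 0.616 FPKM (SD, n = 3) under AAV-shbrpf1, beside 3.18 ± 0.393 under AAV-scramble, a log2 difference of -0.14 ± 0.23 (SE) with a limma adjusted p of 1. The AAV-shbrpf1 library had the lower value in 3 of 3 pairs, with differences of -15.0%, -18.7% and -2.65% in pairs 1, 2 and 3. That direction in all 3 pairs was seen in 11.3% of all genes tested, and the opposite one in 0 members and 7.15% of all genes. For Cacna1g the counting error of the pair 3 libraries was 3.98% and 4.52%. An exact two-sided permutation test of its group means gave p = 0.5, where 3 libraries against 3 allow no p below 0.1.

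Cacna1c, at 3.95 ± 1.47 against 4.29 ± 0.460 FPKM, differed by -32.9% in pair 2 and by 15.4% in pair 3. Its log2 difference was -0.13 ± 0.27 (SE). The release channel gene Cacna1a stood at 12.0 ± 4.14 with AAV-shbrpf1 and 11.7 ± 4.07 FPKM with AAV-scramble (SD, n = 3), 0.04 ± 0.33 on the log2 scale. The remaining genes, Cacna1d, Cacna1e, Cacna1h and Cacna1i, had log2 differences between -0.03 and 0.03.

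The 95% intervals set what these libraries can tell. For Cacna1i the interval was -0.96 to 0.90 on the log2 scale, the widest of the 8, and for Cacna1b it was the narrowest, at -0.40 to 0.60. The replicate number was then entered as a block, since libraries of the same number share a profile, as described under processing. The intervals narrowed to between -0.49 and 0.36 over the 8 genes, 0 of 8 genes passed, and 0.0% of all genes passed. The smallest unadjusted p of a member under the block was 0.238, for Cacna1g, whose interval became -0.40 to 0.12. At an unadjusted p under 0.05 the block gave 0 members and 2.19% of all genes.

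**Figure D3:**
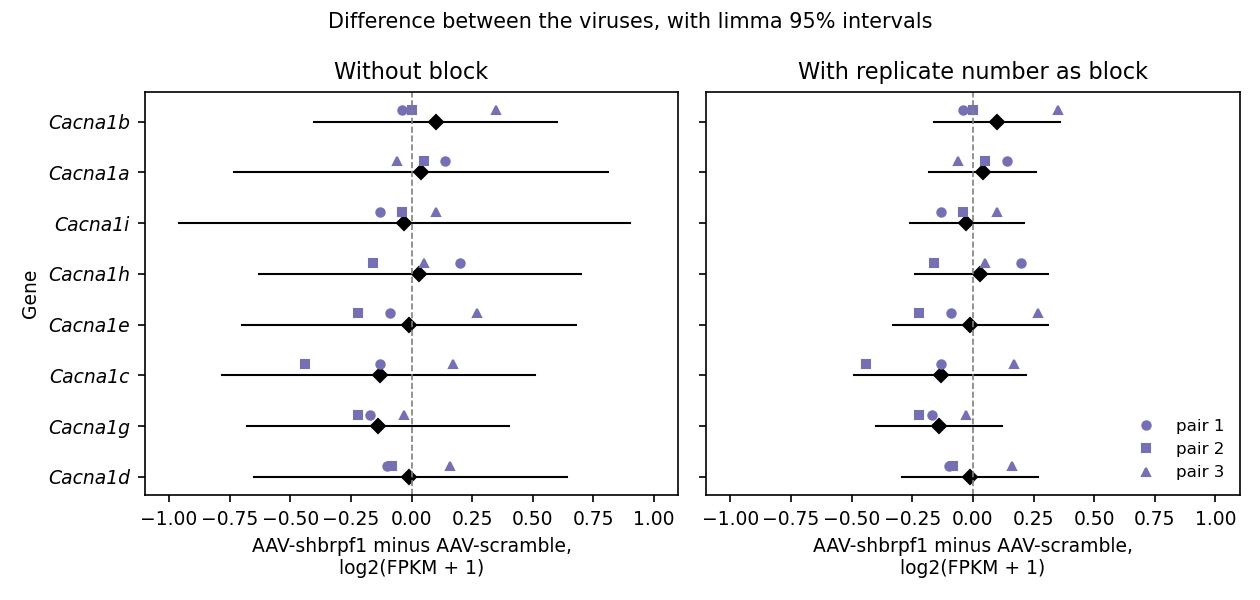
Differences AAV-shbrpf1 minus AAV-scramble in log2(FPKM + 1) (x axis) for the 8 genes (y axis), with diamonds for the limma estimate, lines for its 95% interval and purple symbols for the 3 within-pair differences, without the block (left) and with it (right). All 16 intervals include 0, and the widest, for Cacna1i without the block, runs from -0.96 to 0.90.

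Within pairs, Cacna1c, Cacna1d and Cacna1e had lower values with AAV-shbrpf1 in pair 2 (log2 differences of -0.44, -0.08 and -0.22) and higher values in pair 3 (0.17, 0.16 and 0.27). The median over the 8 genes was -0.10, -0.12 and 0.13 in pairs 1, 2 and 3. All 8 belong to the 2557 tested genes with the longest transcripts (5241 nt or more), whose medians were -0.06, -0.12 and 0.12. The members' medians thus lie close to those of other long transcripts.

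Differences between replicate numbers were tested next. In limma's F test of the number, with the group in the model, 5 of the 8 genes passed (adjusted p under 0.05), where 69.4% of all genes tested passed, so the members' share is near the background. Cacna1i (adjusted p = 0.00276) and Cacna1a (0.00375) had the smallest p, followed by Cacna1h (0.0195), Cacna1d (0.0251) and Cacna1e (0.0265). Cacna1c (0.0833), Cacna1g (0.116) and Cacna1b (0.489) did not pass. What the numbers mark is not stated in the labels.

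In the genes that passed, the numbers fell in 2 orders without overlap. For Cacna1a, Cacna1h and Cacna1i the libraries numbered 1 were lowest, those numbered 3 intermediate and those numbered 2 highest, an order seen in 12.3% of tested genes. Mean levels for numbers 1, 3 and 2 were 8.87, 10.2 and 16.5 FPKM for Cacna1a, 3.84, 5.24 and 6.52 FPKM for Cacna1h, and 4.46, 6.81 and 10.9 FPKM for Cacna1i. For Cacna1d and Cacna1e number 2 was lowest and number 3 highest, an order seen in 7.47% of tested genes. Their means for numbers 2, 1 and 3 were 2.17, 2.99 and 3.82 FPKM, and 3.65, 5.23 and 6.40 FPKM. Cacna1c and Cacna1g also had both libraries numbered 3 above the other 4, as had 16.3% of tested genes.

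**Figure D4:**
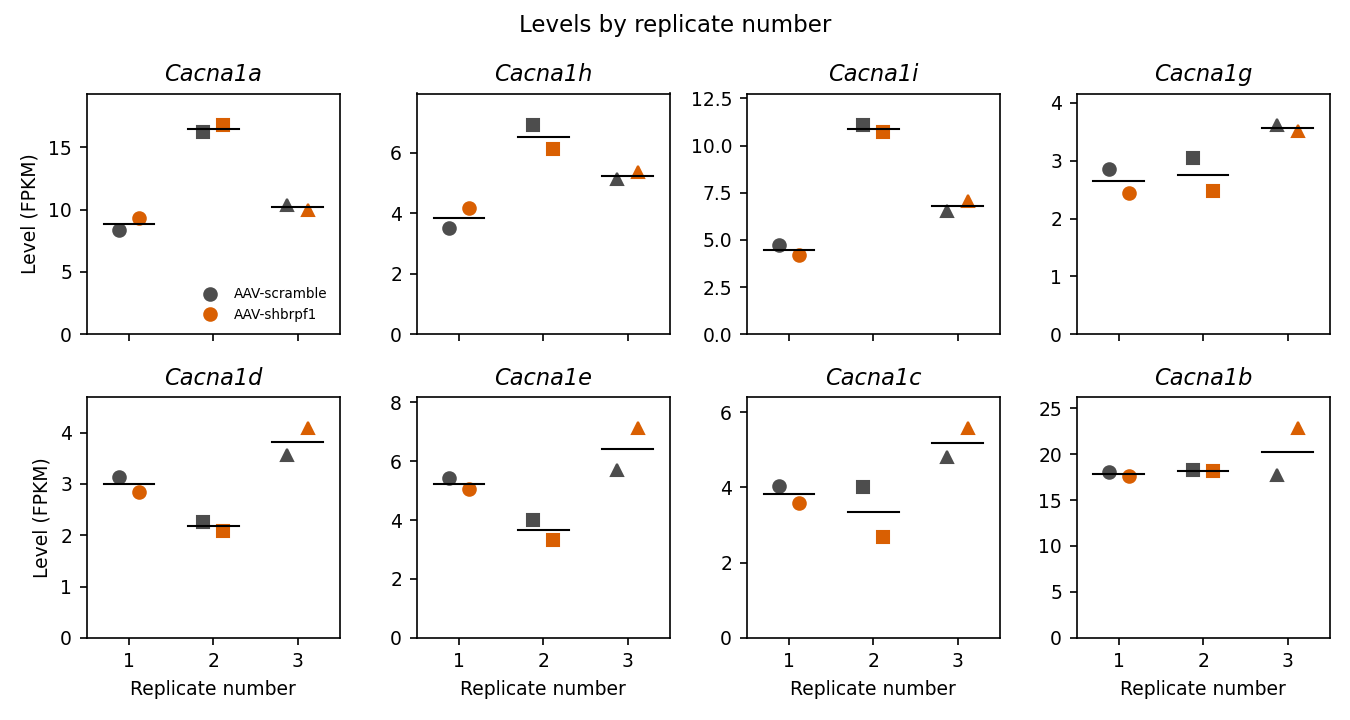
Levels of each gene in FPKM (y axes, each from 0) by replicate number (x axis), with grey points for AAV-scramble, orange for AAV-shbrpf1 and black bars for the mean of the 2 libraries of a number. Cacna1a, Cacna1h and Cacna1i are highest in number 2 and lowest in number 1, whereas Cacna1d and Cacna1e are lowest in number 2 and highest in number 3.

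These orders went in part with the GC content of the transcripts. Over all tested genes with a value (12785), the median log2 difference of number 2 minus number 1 rose from -1.18 in the lowest of 5 equal GC classes to 0.58 in the highest. Cacna1a (58.4% GC), Cacna1h (60.0%) and Cacna1i (59.3%) lie in the highest class and had differences of 0.83, 0.64 and 1.13. Cacna1c, Cacna1d and Cacna1e (50.3%, 49.6% and 48.3%) lie in the middle class, with differences of -0.16, -0.33 and -0.42 beside a median of -0.19. Cacna1g, with 58.1% GC, had a difference of 0.04 beside a median of 0.58. Cacna1b, at 52.9%, had a difference of 0.03 beside a median of 0.24. The class of a gene depends on the transcript taken. In the longest complete coding transcript, GC was 55.6% for Cacna1b and 53.9% for Cacna1c. The latter value lies in the class with the median of 0.24, against the -0.16 of Cacna1c.

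**Figure D5:**
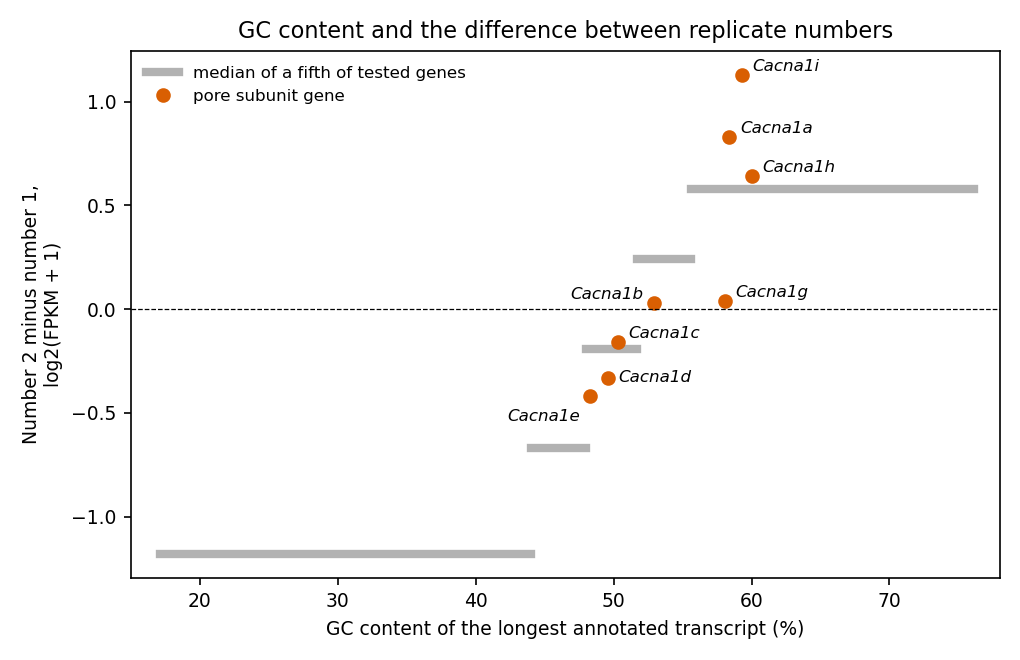
Difference of number 2 minus number 1 in log2(FPKM + 1), averaged over both groups (y axis), against the GC content of the longest annotated transcript in percent (x axis), with orange points for the 8 genes and grey bars for the medians of the 5 GC classes of all tested genes. The bars climb from -1.18 to 0.58, and Cacna1g lies well under the bar of its class while Cacna1i lies above it.

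With the trend on GC removed in each library, an alternative chosen after seeing the data, Cacna1i (adjusted p = 0.0361) and Cacna1a (0.046) still passed the F test. Their differences of number 2 minus number 1 were then 0.57 and 0.32 on the log2 scale. Cacna1g passed as well (0.0382), with a difference of -0.45. Cacna1h (0.688), Cacna1d (0.132) and Cacna1e (0.193) no longer passed. Without both libraries numbered 2, also chosen after seeing the data, Cacna1i alone passed (0.0193), and Cacna1a had an adjusted p of 0.28. Cacna1d and Cacna1e also did not pass when each library was scaled to its median (0.0756 and 0.0898). Nor did they with quantile normalization (0.0806 and 0.0946) or with no filter (0.0749 and 0.0842). They did not pass without AAV-scramble library 1 or without any 1 of the AAV-shbrpf1 libraries, with adjusted p from 0.0534 to 0.0968. Cacna1h did not pass with no filter (0.0602). It also did not without either library numbered 1 (0.159 without that of AAV-scramble, 0.0695 without that of AAV-shbrpf1). Conversely, Cacna1c passed without AAV-scramble library 2 (0.0198) and without AAV-scramble library 3 (0.045), and Cacna1g passed with quantile normalization (0.027).

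Levels of cell type markers also differed between numbers, and some lists shared a direction while others did not. The 7 neuron markers summed to 1310 and 1290 FPKM in the libraries numbered 2 and to 882 to 1110 FPKM in the other 4. Tubb3, Syn1 and Rbfox3 were highest in number 2, whereas Syt1 and Map2 were lowest there and Stmn2 and Snap25 were highest in number 1. Syn1, a synaptic vesicle protein, was at 350 and 342 FPKM in number 2 and at 63.2 to 139 FPKM elsewhere, and Map2, of the dendritic cytoskeleton, at 23.8 and 17.0 FPKM against 39.1 to 52.6. The 8 progenitor and radial glia markers summed to 317 and 286 FPKM in number 2 against 804 to 939 FPKM elsewhere. Most of that sum was Fabp7, at 187 and 169 FPKM in number 2, while Hes5 was lowest in number 1. The 6 markers of cycling cells summed to 37.4 and 33.5 FPKM in number 2 against 62.6 to 71.7 FPKM. Pcna, Top2a, Mki67, Ccnb1 and Cdk1 were each lowest in both libraries numbered 2, and Rrm2 was not. The F test was passed by 7 of 7 neuron markers, 5 of the 7 progenitor markers measured and 5 of 6 cycling markers, beside 69.4% of all genes. It was also passed by 11 of 11 GABAergic MGE interneuron markers and 7 of 7 oligodendrocyte lineage markers. The interneuron markers shared no direction. Gad1 was highest in number 1 (177 and 157 FPKM), Slc32a1 in number 2 (119 and 121) and Lhx6 in number 3 (52.5 and 49.0). Fibroblast markers summed to 36.3 and 15.6 FPKM in number 1 and to at most 0.545 FPKM elsewhere, and each was highest in number 1. The part of these markers, and of the ribosomal and mitochondrial shares, in the levels of the pore subunits was not tested. Between the viruses these sums overlapped: neuron markers summed to 882 to 1310 FPKM with AAV-scramble and 951 to 1290 with AAV-shbrpf1, and progenitor markers to 317 to 892 and 286 to 939 FPKM.

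A pore subunit needs partners to reach the membrane. Beta subunits bind the linker of Cav1 and Cav2 channels and bring them to the surface, and alpha2delta subunits, the targets of gabapentin, are extracellular. Of the 4 beta genes all were measured and 0 passed between the viruses, with a median log2 difference of 0.01 beside -0.023 over all genes. Cacnb3 and Cacnb1 led them. Cacnb3 stood at 18.4, 37.3 and 26.9 FPKM in AAV-scramble libraries, as against 18.8, 37.9 and 26.3 in AAV-shbrpf1 libraries, and Cacnb1 at 11.6, 30.8 and 15.9 against 13.1, 29.3 and 15.3 FPKM. Both had number 2 highest, as Cacna1a had. Cacnb4 and Cacnb2 were instead highest in number 1, Cacnb4 at 12.1 and 10.6 FPKM there against 1.88 to 5.15 FPKM elsewhere. Cacnb2 was at 1.76 and 1.74 FPKM in number 1 against 0.854 to 1.04 FPKM. All 4 beta genes passed the F test of the number, which 69.4% of all genes passed.

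Of the 4 alpha2delta genes 3 were measured and 0 passed, with a median of -0.06. Cacna2d2 measured 13.6, 16.9 and 15.8 FPKM in AAV-scramble libraries, as against 17.0, 16.2 and 16.5 in AAV-shbrpf1 libraries, and Cacna2d3 averaged 7.47 ± 2.22 and 7.11 ± 2.01 FPKM (SD, n = 3). Cacna2d2 did not pass the F test of the number (adjusted p = 0.677), whereas Cacna2d3 (0.00827) and Cacna2d1 (0.00344) did. Cacna2d1 was at 7.49 and 4.98 FPKM in number 1 and at 0.846 to 1.62 FPKM elsewhere. The gamma family, whose measured members mostly serve AMPA receptors as TARPs, had 6 of 8 genes measured and 0 passing, with Cacng7 at 44.6 ± 9.78 FPKM with AAV-scramble and Cacng4 at 34.8 ± 13.4 (SD, n = 3).

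Among 22 regulators and anchors of the channels, 19 were measured and 0 passed, with a median log2 difference of -0.05. They include calmodulin, which binds the channel's tail and closes it when calcium is high, and RIM and RIM-binding proteins, which tether Cav2 channels at release sites. The most abundant were Calm3 at 369 ± 42.6 FPKM with AAV-scramble and 358 ± 65.2 with AAV-shbrpf1, and Calm2 at 264 ± 110 and 279 ± 128 (SD, n = 3). Rem2, a small GTPase that inhibits these channels, is named because of its values, after they were seen. It measured 2.64, 5.47 and 2.55 FPKM in AAV-scramble libraries, as against 1.97, 3.52 and 1.76 in AAV-shbrpf1 libraries, a log2 difference of -0.39. Each AAV-shbrpf1 library lay below its partner, as in 11.3% of all genes tested. The limma p for Rem2 was 0.0125 under the block and became 1 after adjustment. Nalcn, the sodium leak channel related to this family, stood at 9.51, 5.28 and 7.95 FPKM against 9.72, 4.88 and 9.50 FPKM.

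Downstream of calcium entry, 5 of 9 calcium-activated potassium channel genes were measured and 0 passed. Kcnma1, the BK channel that N- and P/Q-type channels are known to open, stood at 11.4, 5.72 and 7.70 FPKM in AAV-scramble libraries, as against 10.9, 4.05 and 11.4 in AAV-shbrpf1 libraries, lowest in the libraries numbered 2. Kcnmb4, its neuronal beta subunit, measured 3.14, 5.68 and 6.89 FPKM in AAV-scramble libraries, as against 4.04, 4.65 and 5.70 in AAV-shbrpf1 libraries.

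Some genes ran close to a pore subunit across the 6 libraries, by the root mean square difference of log2(FPKM + 1) profiles centred on each gene's mean, among 11403 named genes. The nearest to Cacna1a was Mapk8ip2, a JNK scaffold of the synapse, at a distance of 0.0318, with levels of 35.0, 66.2 and 43.2 FPKM in AAV-scramble libraries, as against 36.9, 68.6 and 41.1 in AAV-shbrpf1 libraries. For Cacna1i it was the palmitoyltransferase gene Zdhhc9 (0.0405), for Cacna1h Tgfa (0.0104), for Cacna1d Dusp16 (0.0189) and for Cacna1c Erc1 (0.0606), an active zone protein. The nearest to Cacna1b was Apln (0.0426), to Cacna1e Mbd4 (0.0495) and to Cacna1g Zscan22 (0.0465). Apln (1.02 to 1.59 FPKM), Mbd4 (0.459 to 1.65) and Dusp16 (0.891 to 2.17) lie near the filter, where this scale shrinks differences. A small distance there does not mean an equal relative change: Cacna1e ran from 3.31 to 7.11 FPKM. Within the family the closest profiles were those of Cacna1d and Cacna1e (0.0644) and the farthest those of Cacna1e and Cacna1i (0.681). The profiles come from the same 6 libraries and share their depth and the trend on GC content, so these distances are a description.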

How the data were processed

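RNA was sequenced as paired ends, per the labels' protocols. The authors deposited 1 table of FPKM values. The submitters' processing notes list StringTie, FastQC and DESeq2 but give neither version nor role. Its header names no unit, and FPKM was read from the values, which are not whole and have unequal sums. The notes give the build mm9, yet the coordinates of 54899 genes equal those in GENCODE M21 (GRCm38), out of 55154 identifiers matched, and GRCm38 is used here. Aligner, annotation and strand: not given in the sources used here. A gene-level FPKM moves with the transcripts counted.

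Genes averaging 1 FPKM or more in either group were tested as log2(FPKM + 1) with limma 3.58.1 (trend, two-sided) in R 4.3.3, with Benjamini-Hochberg adjustment over all genes; this scale shrinks the differences of weakly expressed genes. The scripts were tested on simulated data. Columns were matched to samples by group and number. Deviations from group means correlated at 0.87, 0.83 and 0.57 between libraries of the same number and at 0.002 or less between others. Deviations cancel out within a group, which by itself lowers the correlations between others. Libraries of the same number thus share a profile and were treated as pairs, though the labels state no pairing. Depth was estimated from 11673 genes of a single exon and transcript. GC content is that of the longest GENCODE transcript. The members and lists (21, with 163 entries) were chosen with earlier results of these data known. Named by rule are the 8 genes, Brpf1 and the nearest gene to each of the 8. Per list other than those of cell type markers, the rule names genes past the threshold or otherwise the 2 most abundant. Further genes, such as Cacnb4, Cacnb2, Cacna2d1, Cacna1f, Rem2 and single cell type markers, lie outside that rule and were named with their values known. Alternatives were the pseudocount, filter, scaling, trend, block and leaving out libraries. Sequences are from GENCODE transcripts.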

Additional observations from a re-analysis of the deposited data

How the results depend on the processing

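Between the viruses 0 of the genes tested among the 8 passed in each of the 18 alternatives, the replicate block included (0 of all genes and 0 members). With a mean of at least 5 FPKM only 5 of them were tested, without Cacna1c, Cacna1d and Cacna1g. The count over all genes was 0 in 16 of them, and was 8 under the block without pair 2 and 1 under the block without pair 3. With 1 library left out, log2 differences ran from -0.21 to 0.29 for Cacna1a, -0.01 to 0.17 for Cacna1b, -0.36 to 0.06 for Cacna1c, -0.20 to 0.17 for Cacna1d, -0.23 to 0.22 for Cacna1e, -0.18 to 0.23 for Cacna1h and -0.31 to 0.27 for Cacna1i, all crossing 0, and from -0.27 to -0.06 for Cacna1g. Under the block the sign also turned without pair 1 for Cacna1a (-0.01), Cacna1d (0.04), Cacna1e (0.03), Cacna1h (-0.05) and Cacna1i (0.03), without pair 2 for Cacna1c (0.02), Cacna1d (0.03) and Cacna1e (0.09), and without pair 3 for Cacna1b (-0.02). Quantile normalization gave 0.01 for Cacna1d and 0.02 for Cacna1e, and median scaling gave 0.00 for Cacna1d. Correction for GC, without or with the replicate block, gave 0.00 for both.

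In the F test of the number, 8876 genes passed, against 5493 with a mean of at least 5 FPKM (fewer genes tested), 5426 after GC correction, 5137 without number 2 of both groups and 4793 to 8885 with 1 library left out. Of the members 5 passed, against 4 of 5 tested with a mean of at least 5 FPKM, 2 with no filter, 3 with median scaling, 3 after GC correction, 1 without number 2 of both groups and 2 to 6 with 1 library left out. Apart from the filter and the libraries left out, the cause was not tested. Depth limits Cacna1d most, with an estimated 179 fragments in AAV-shbrpf1 library 2.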

Other observations

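The genes that clear calcium after it enters did not pass between the viruses either. Of 10 genes of calcium extrusion 8 were measured and 0 passed (limma adjusted p), with a median log2 difference of 0.01. Atp2a2, the pump that refills the endoplasmic reticulum, was the most abundant at 96.4, 97.1 and 99.3 FPKM in AAV-scramble libraries, as against 94.4, 90.9 and 111 in AAV-shbrpf1 libraries, and did not pass the F test of the replicate number (adjusted p = 0.394). Atp2b2, a plasma membrane pump, measured 11.9, 21.4 and 23.1 FPKM in AAV-scramble libraries, as against 19.6, 34.3 and 23.2 in AAV-shbrpf1 libraries. It was higher in pairs 1 and 2, with nearly equal levels in pair 3, and its limma p of 0.0279 under the block became 1 after adjustment.

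Of 11 genes of calcium release and store-operated entry 9 were measured and 0 passed, with a median of 0.03. Orai2, a store-operated channel, stood at 5.99, 8.35 and 7.97 FPKM in AAV-scramble libraries, as against 5.79, 6.56 and 7.52 in AAV-shbrpf1 libraries, and Itpr1, the inositol trisphosphate receptor, at 6.71, 6.72 and 2.89 against 5.75, 6.05 and 4.34 FPKM. Of 13 genes that carry calcium signals to the nucleus 12 were measured and 0 passed, with a median of -0.09. Ppp3r1, the regulatory subunit of calcineurin, measured 89.8, 45.4 and 61.5 FPKM in AAV-scramble libraries, as against 81.7, 35.6 and 69.5 in AAV-shbrpf1 libraries, and the catalytic subunit gene Ppp3ca 20.2, 12.6 and 20.5 against 18.9, 9.51 and 21.1 FPKM. Both were lowest in the libraries numbered 2, as were Cacna1d and Cacna1e.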
